A study of Mus musculus with 12 samples.

Results

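Muscle macrophages collected at 4 days post-ischemia (dpi) were compared with those collected at 7 dpi, which make up 6 of the 12 libraries of the series, 3 at each time point. All genes of the deposited count table entered the comparison, 55414 Ensembl gene IDs, of which 14310 passed the filter on low counts and were tested. The mice were wild-type C57BL6J males aged 8 to 12 weeks whose femoral artery had been ligated, and the calf muscle of the ischemic leg was digested to release the cells. Both groups held living cells sorted as t-CD45+CD11b+F4/80+CD64+, where t-CD45 stands for the immune cells stained after digestion of the tissue, CD11b for myeloid cells, and F4/80 and CD64 for macrophages. This sort had no further gate, so recruited and resident macrophages were measured together. No uninjured muscle was among the libraries, and the only difference between the groups that the labels give is the day. The sources do not tell whether 1 library came from 1 mouse or from a pool. The P values below set the difference between the 2 days against the variation among libraries of the same day, estimated over all 12 libraries of the series. Part of that variation may be technical.

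Macrophages enter damaged muscle as blood monocytes, take up dead fibres and neutrophils, and later turn to programmes that support new fibres, vessels and matrix. Dividing macrophages, the use of glycolysis, and the display of peptides on major histocompatibility complex (MHC) class II molecules are among the features that differ between early and late states. The interval from 4 to 7 dpi is the later part of this course, after the bulk of the infiltration.

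Differentially expressed genes (DEGs) were defined by an FDR under 0.05 and an absolute log2 fold change (log2FC) above 1 in edgeR's quasi-likelihood test, with the FDR adjusted by Benjamini-Hochberg over all genes tested. By this rule 1064 genes (7.44% of those tested) were higher at 7 dpi and 744 (5.2%) were lower, and the median log2FC of all genes tested was -0.03. DESeq2, with its own scaling, gave 1501 and 634. The libraries of 7 dpi lay wholly above those of 4 dpi in 19.3% of genes and wholly below in 20.7%. The filter looked at all 12 libraries, and 208 of the 1064 genes would not have passed it without those of 7 dpi, which is called passing through 7 dpi alone below. In the same way 5 of the 744 genes called lower passed through 4 dpi alone. Placed in the whole course from 1 dpi, 979 of the genes called higher had their highest mean at 7 dpi and 587 of the genes called lower had their lowest mean there. Because RNA of a whole sort was measured, fewer cells that express a gene and less of its RNA per cell cannot be told apart in any of these values.

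Total counts were 25336823 to 32243176 per library at 4 dpi and 21818697 to 24137647 at 7 dpi. The most abundant gene, which has no symbol here, took 45.0% to 49.7% of the counts at 4 dpi and 14.8% to 30.1% at 7 dpi, and more genes had a count at 7 dpi (19351 to 21257) than at 4 dpi (17084 to 17645). Mitochondrial genes took 6.27% to 12.5% of the remaining counts at 4 dpi and 6.62% to 18.9% at 7 dpi, the highest share being in replicate 2 of 7 dpi. That library also stood apart in another way. It held the highest 7 dpi value of 728 of the 1064 genes called higher, while replicate 3 held the highest 7 dpi value of 604 of the 744 genes called lower, so replicate 3 lay nearest to 4 dpi for most of the latter. At 4 dpi, replicate 1 held the highest value of 488 of the genes called lower. The genes of the sort were present on both days. Adgre1, which encodes F4/80, stood at 514, 779 and 630.3 CPM (counts scaled to the size of the library) at 4 dpi and at 578, 775 and 652 CPM at 7 dpi. Of 15 core macrophage genes tested, 1 rose (6.67%, near the 7.44% of all genes) and 0 fell (median log2FC 0.04). Fcgr1, which encodes CD64, had a log2FC of -0.72 ± 0.21 (SE, FDR = 0.0203), short of the threshold on fold.

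**Figure D1:**
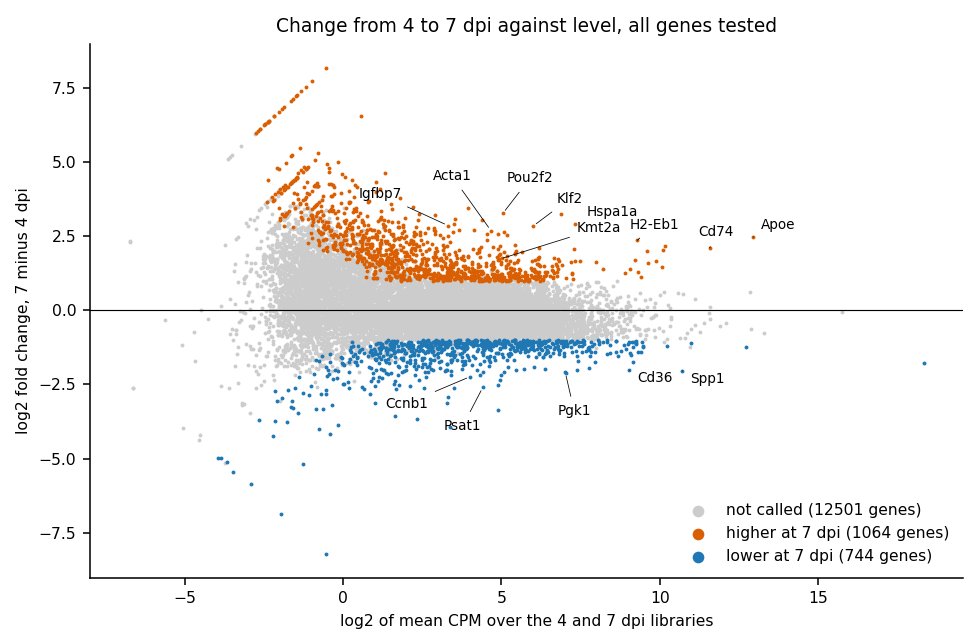
Log2FC from 4 to 7 dpi (y-axis, 7 minus 4) against the log2 of the mean CPM over the 6 libraries (x-axis), 1 point per gene tested, orange for the 1064 genes called higher, blue for the 744 called lower and grey for the rest. Apoe and Cd74 stand out as abundant genes that rose and Spp1 and Cd36 as abundant genes that fell, and the diagonal lines of points at the left are genes with few counts.

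Of the 15 leading increases 4 were TEC entries and 2 were HSP70 genes, both described below, and the first was Dst. This gene of dystonin, a linker of the cytoskeleton, stood at 2.81, 2.58 and 2.33 CPM at 4 dpi and at 31.2, 26.9 and 27.1 CPM at 7 dpi, with little spread in either group (log2FC = 3.46 ± 0.22, SE, FDR = 3.63e-07). Pou2f2, a POU-domain transcription factor best known from B cells, stood at 4.99, 5.99 and 7.59 CPM at 4 dpi and at 92.0, 56.1 and 31.4 CPM at 7 dpi, a rise of 9.69-fold (log2FC = 3.28 ± 0.37, SE, FDR = 0.00014). Lag3, an inhibitory receptor that binds MHC class II, went from 1.51, 4.88 and 6.98 CPM to 55.8, 23.5 and 31.8 CPM (log2FC = 3.07 ± 0.45, FDR = 0.000586). Klf2, a Krüppel-like factor that restrains inflammatory genes in myeloid cells, went from 9.10, 24.9 and 12.9 CPM to 90.2, 198 and 49.3 CPM (log2FC = 2.85 ± 0.44, FDR = 0.000732). Leading genes were picked among called genes whose libraries of the 2 days did not overlap, so the lack of overlap follows from the choice. Except for Dst the spread among the 7 dpi libraries was wide, with the highest value in replicate 1 for Pou2f2 and Lag3 and in replicate 2 for Klf2. Igfbp7, a secreted binder of insulin-like growth factors, rose by 7.28-fold, and Bod1l and Golga4, a protector of replication forks and a golgin of the Golgi membrane, rose by 6.25-fold and 6.05-fold.

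Among the leading decreases were an enzyme, an integrin and a protease. Psat1, an enzyme of serine synthesis, stood at 56.4, 27.6 and 25.7 CPM at 4 dpi and at 3.08, 4.31 and 10.8 CPM at 7 dpi (log2FC = -2.59 ± 0.38, FDR = 0.000614). Itgb7, the integrin subunit β7, went from 78.3, 48.9 and 29.3 CPM to 5.32, 7.92 and 17.4 CPM (log2FC = -2.36 ± 0.38, FDR = 0.000923). Plau, the urokinase that activates plasminogen, went from 374, 101 and 168 CPM to 22.1, 56.7 and 69.8 CPM (log2FC = -2.11 ± 0.42, FDR = 0.00278). All 3 genes were highest in replicate 1 of 4 dpi. Their lowest 4 dpi value lay above every 7 dpi value, as the choice of leading genes required.

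Many genes of cell division fell. Of 48 genes of mitosis tested, 29 (60.4%, against 5.2% of all genes) were lower and 0 higher at 7 dpi, with a median log2FC of -1.49. Of 42 genes of DNA replication, 14 were lower (33.3%) and 0 higher (median -1.03), and 1 of the 42 passed the filter through 4 dpi alone. The summed level of the mitosis list was 821, 585 and 635 CPM at 4 dpi and 284, 177 and 462 CPM at 7 dpi, and it had been 50.0 to 54.3 CPM at 1 dpi and 176 to 220 CPM at 2 dpi, so that 4 dpi was the highest of the 4 days. Ccnb1, the cyclin that drives entry into mitosis, stood at 32.0, 23.8 and 24.6 CPM at 4 dpi and at 3.89, 1.54 and 11.6 CPM at 7 dpi (log2FC = -2.23 ± 0.48, FDR = 0.00422). Ccna2, the cyclin of S and G2 phase, went from 41.7, 30.2 and 32.3 CPM to 9.18, 2.90 and 12.5 CPM (log2FC = -2.08 ± 0.36, FDR = 0.00142). Both cyclins were among the leading decreases, which were picked without overlap, and replicate 3 of 7 dpi kept their highest level of that day. Cdca3, a trigger of mitotic entry, Aurka, a kinase of the spindle poles, Bub1b, a kinase of the spindle checkpoint, and Racgap1, needed for cytokinesis, fell by 4.52-fold, 3.95-fold, 3.47-fold and 3.31-fold. In replication, Mcm7, a subunit of the replicative helicase, went from 92.0, 33.2 and 40.6 CPM to 6.21, 8.93 and 24.0 CPM (log2FC = -2.08 ± 0.42, FDR = 0.00304). Pole, the leading-strand polymerase, and Prim2, a primase subunit, fell by 4.27-fold and 2.44-fold.

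Some genes of division went against the rest. Mki67, the common marker of dividing cells, had values of 21.5, 13.4 and 19.9 CPM at 4 dpi and of 33.0, 23.5 and 51.8 CPM at 7 dpi (log2FC = 0.98 ± 0.26, FDR = 0.0144), just under the threshold on fold. It was chosen for mention after its values had been seen, and was 1 of 4 mitosis genes with a log2FC above 0. Of 10 inhibitors of the cycle tested, 1 rose and 0 fell, and 3 rose without replicate 2 of 4 dpi or replicate 1 of 7 dpi and 2 without replicate 3 of 7 dpi. The 1 was Cdkn1c, which encodes the inhibitor p57 and which stood at 0.938, 3.69 and 1.49 CPM at 4 dpi and at 14.6, 13.7 and 10.7 CPM at 7 dpi (log2FC = 2.69 ± 0.52, FDR = 0.00249). The counts of fallen members depended on single libraries. They were 18, 17 and 18 for mitosis without replicate 1 of 4 dpi, replicate 1 of 7 dpi or replicate 2 of 7 dpi, and 6, 8 and 6 for replication. Without replicate 3 of 7 dpi the count for replication was 24, and without replicates 1 of 4 dpi and 2 of 7 dpi together the counts were 9 and 2.

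**Figure D2:**
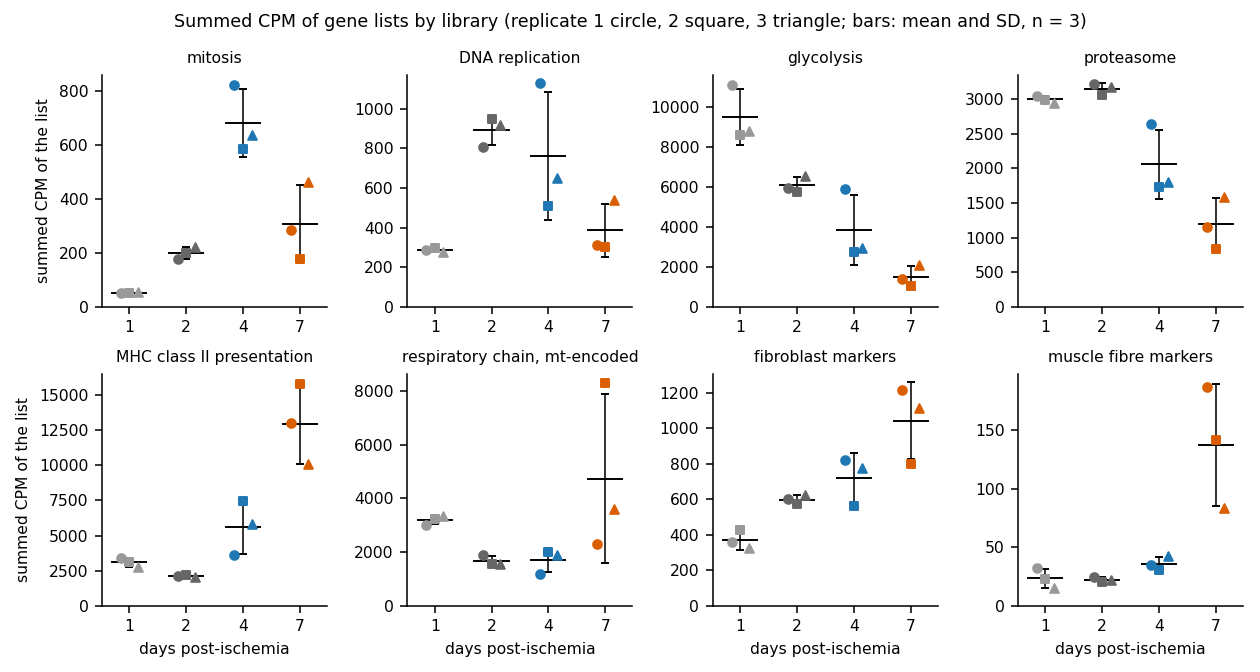
Summed CPM of the members of 8 gene lists (y-axis) in each of the 12 libraries by day (x-axis), with grey points for 1 and 2 dpi, blue for 4 dpi and orange for 7 dpi, and bars for the mean and SD of 3 libraries. The mitosis sum is highest at 4 dpi (585 to 821 CPM), the MHC class II and muscle fibre sums are highest at 7 dpi, and the mitochondrially encoded sum is far higher in replicate 2 of 7 dpi (8282 CPM) than in its other replicates.

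The promoter of Ccnb1 is shown because the shared feature of the mitosis list that the counts did not use lies there, the CCAAT box bound by the factor NF-Y. The 250 bases before the start come from RefSeq on build GRCm38.p6 (chr13:100786487-100786736, minus strand), with each CCAAT, searched on both strands, in capitals.
Ccnb1: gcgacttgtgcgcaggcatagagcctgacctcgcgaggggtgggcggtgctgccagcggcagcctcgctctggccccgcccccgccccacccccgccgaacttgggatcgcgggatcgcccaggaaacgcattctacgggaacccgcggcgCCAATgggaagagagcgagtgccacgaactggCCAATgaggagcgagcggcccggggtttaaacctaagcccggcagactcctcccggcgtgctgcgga
It held 2 matches. RefSeq windows were found for 39 of the 48 mitosis genes, and 30 of their 41 windows (73.2%) held CCAAT, against 33.8% of all 32851 windows in the reference. The motif TTTGAA, the core of the cell cycle homology region, was in 15 of the 41 windows (36.6%) against 16% of all windows. For the replication list CCAAT was in 26 of 43 windows (60.5%) and TTTGAA in 6 (14%). These are matches of letters and not measured binding.

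Genes of central energy metabolism that are encoded in the nucleus were often lower at 7 dpi. Of 24 genes of glycolysis tested, 12 fell and 1 rose (median log2FC -0.90), and their summed level went from 5874, 2736 and 2933 CPM to 1376, 1052 and 2086 CPM. Pgk1, which encodes phosphoglycerate kinase, stood at 349.7, 134 and 144 CPM at 4 dpi and at 40, 30.5 and 77.3 CPM at 7 dpi (log2FC = -2.09 ± 0.36, FDR = 0.00142). Pkm, the pyruvate kinase of the last step, went from 1379, 594 and 649 CPM to 223, 136 and 429 CPM (log2FC = -1.74 ± 0.37, FDR = 0.00393). In both genes replicate 1 of 4 dpi was far above the other replicates. The groups did not overlap, which for Pgk1, a leading decrease, was a condition of its choice. Hk3, a hexokinase of myeloid cells, fell by 2.48-fold. Gapdh fell by 4.54-fold, a value that is uncertain because the genome holds many near-identical pseudogene copies that can take its reads. The gene that rose was Eno2, the neuronal enolase, at 0.22 to 0.454 CPM at 4 dpi and 1.07 to 2.24 CPM at 7 dpi, a call lost without replicate 3 of 4 dpi or replicate 1 of 7 dpi. Without replicate 1 of 4 dpi, 6 of the 12 glycolysis genes were called, and without it and replicate 2 of 7 dpi together 2 were.

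In the mitochondrion, nuclear and mitochondrial genes parted. In the tricarboxylic acid cycle 4 of 24 genes fell (16.7%, against 5.2% of all genes) and 0 rose (median -0.75). Cs, the citrate synthase, led them and went from 156, 115 and 145 CPM to 39.7, 42.4 and 61.9 CPM (log2FC = -1.53 ± 0.19, FDR = 0.00027). Of 70 nuclear genes of the respiratory chain, 11 fell (15.7%) and 0 rose (median -0.78), and 69 of the 70 had a log2FC below 0. Atp5a1, the α subunit of ATP synthase, went from 870.2, 679 and 759 CPM to 189, 237 and 436 CPM (log2FC = -1.42 ± 0.25, FDR = 0.00161). Of 11 mitochondrially encoded genes of the chain tested, 7 rose (63.6%, against 7.44% of all genes) and 0 fell (median 1.27). mt-Cytb, the cytochrome b gene, stood at 334, 527 and 493 CPM at 4 dpi and at 718, 2535 and 1099 CPM at 7 dpi (log2FC = 1.68 ± 0.35, FDR = 0.00334). The value of replicate 2 of 7 dpi was more than 2 times that of the other replicates. Without this library 1 mitochondrially encoded gene was called higher and 2 nuclear chain genes were called lower. The part of this library in the parting of the 2 genomes was not tested further. The counts were 4 and 6 without replicate 1 of 4 dpi. The count of nuclear chain genes was 21 without replicate 3 of 4 dpi, 20 without replicate 1 of 7 dpi and 29 without replicate 3 of 7 dpi. The count for the tricarboxylic acid cycle was 2 without replicate 1 of 4 dpi or replicate 2 of 7 dpi and 13 without replicate 3 of 7 dpi.

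Many genes of cytosolic ribosomal proteins, the protein part of the translation machinery, fell. Of 79 tested 33 fell (41.8%, against 5.2% of all genes) and 0 rose, with a median log2FC of -0.95, and in 76 of them every 7 dpi library lay below every 4 dpi library. The summed level of the list was 13420, 14390 and 12590 CPM at 4 dpi and 6263, 6149 and 8547 CPM at 7 dpi, without overlap. Rps15a, a protein of the small subunit, stood at 166, 172 and 152 CPM at 4 dpi and at 56.9, 55.1 and 78.3 CPM at 7 dpi (log2FC = -1.36 ± 0.18, FDR = 0.000296). Rpl27, of the large subunit, fell by 2.55-fold. The members with a log2FC above 0 were Rpl24 and Rps10, neither of them called. Ribosomal protein genes have many pseudogene copies that can take their reads, and of 65 such pseudogenes tested 23 were also lower and 2 higher (median -1.07). Without replicate 3 of 7 dpi the count of 33 was 51.

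Antigen presentation on MHC class II rose. Of 12 genes of this pathway tested, 7 were higher at 7 dpi (58.3%, against 7.44% of all genes) and 1 was lower, with a median log2FC of 1.13. H2-Eb1, the β chain of the class II molecule I-E, stood at 103, 297 and 209.5 CPM at 4 dpi and at 908, 1606 and 636 CPM at 7 dpi, a rise of 5.17-fold (log2FC = 2.37 ± 0.36, FDR = 0.000704). Cd74, the invariant chain that guards the peptide groove, went from 552, 1736 and 1149 CPM to 5185, 6711 and 2978 CPM (log2FC = 2.11 ± 0.36, FDR = 0.00114). In both genes the lowest 7 dpi library lay above the highest 4 dpi library. H2-Aa and H2-Ab1, the chains of I-A, rose by 4.47-fold and 4.10-fold with no overlap. H2-DMb1, which helps load peptides, rose by 2.24-fold, a call lost without replicate 1 of 4 dpi or replicate 2 of 7 dpi. The gene that fell was Ifi30, a thiol reductase of the endosome (log2FC = -1.03 ± 0.27, FDR = 0.0117), just past the threshold on fold, and its call was lost without replicate 3 of 4 dpi or replicate 2 of 7 dpi. Without replicate 1 of 4 dpi or replicate 2 of 7 dpi, 4 of the 7 genes were called higher. Of 20 class I genes 1 rose and 1 fell (5% each, median -0.06), and of 58 interferon response genes 1 rose and 1 fell (1.72% each, median -0.18).

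Cells other than macrophages that carry class II were looked for by their markers. Of 13 dendritic cell genes tested 1 rose (7.69%, near the 7.44% of all genes) and 0 fell. The count was 0 without replicate 1 of 4 dpi or replicate 2 of 7 dpi. The summed level of that list was 28.9 to 45.9 CPM at 4 dpi and 42.5 to 86.5 CPM at 7 dpi. Of its 13 genes 11 had a log2FC above 0 (median 0.75), and 2 of the 13 passed the filter through 7 dpi alone. Flt3, a defining receptor of that lineage, stood at 0.755 to 1.39 CPM at 4 dpi and 0.735 to 2.59 CPM at 7 dpi. Zbtb46, its other defining marker and the gene that rose, went from 0.665, 0.533 and 0.966 CPM to 1.62, 4.28 and 2.26 CPM (log2FC = 1.91 ± 0.54, FDR = 0.0176), a call lost also without replicate 2 of 4 dpi. For B cells, the defining marker Cd79a had 0 to 8 counts per library, too few to test. Of 6 B cell genes tested 2 rose (33.3%), Cd22 and Bank1, the latter not without replicate 1 or 3 of 4 dpi or replicate 2 of 7 dpi, and the summed level was 78.1 to 225 CPM at 4 dpi and 168 to 230.2 CPM at 7 dpi. Most of that sum was Ighm, which was not called. It stood at 64, 193 and 138 CPM at 4 dpi and at 136, 166 and 118 CPM at 7 dpi (log2FC = 0.09 ± 0.38, FDR = 0.887). All 6 genes had a log2FC above 0 (median 0.99). Besides Cd22 and Bank1, 2 of the 6 passed the filter through 7 dpi alone. The part of these cells in the class II result was not tested.

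The promoters of a pair of class II genes are shown because the pathway shares conserved boxes there, among them the Y box, which holds CCAAT. Each CCAAT, searched on both strands, is in capitals, whether or not it is the Y box. Both are the 250 bases before the start from RefSeq, build GRCm38.p6, for H2-Aa at chr17:34287824-34288073 on the minus strand and for H2-Eb1 at chr17:34305617-34305866 on the plus strand.
H2-Aa: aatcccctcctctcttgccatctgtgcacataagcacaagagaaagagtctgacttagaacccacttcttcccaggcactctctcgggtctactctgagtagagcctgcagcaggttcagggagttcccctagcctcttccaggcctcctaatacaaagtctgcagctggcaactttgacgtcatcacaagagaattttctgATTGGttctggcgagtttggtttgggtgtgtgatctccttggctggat
H2-Eb1: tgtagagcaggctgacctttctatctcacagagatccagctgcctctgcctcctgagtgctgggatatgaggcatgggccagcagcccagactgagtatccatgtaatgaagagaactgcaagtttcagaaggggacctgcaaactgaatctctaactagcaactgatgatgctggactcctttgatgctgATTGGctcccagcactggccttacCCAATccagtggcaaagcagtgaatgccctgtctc
H2-Aa had 1 match, as ATTGG, and H2-Eb1 had 2. Windows were found for 10 of the 13 genes listed, and 8 of the 11 windows (72.7%) held CCAAT, against 33.8% of all windows in the reference.

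In the lists of lipid-associated, iron and lysosomal genes most members had a log2FC below 0, and Apoe was the large exception. Apoe, which encodes the apolipoprotein that carries lipid out of macrophages, stood at 1118, 3759 and 2323 CPM at 4 dpi and at 20480, 11200 and 8373 CPM at 7 dpi (log2FC = 2.48 ± 0.40, FDR = 0.000869). It was the only one of 31 genes of the lipid-associated macrophage state to rise, while 7 fell (22.6%, against 5.2% of all genes, median -0.35). Cd36, a receptor for fatty acids and dead cells, went from 903, 856 and 764 CPM to 148, 209 and 266 CPM (log2FC = -2.02 ± 0.27, FDR = 0.000379). Lgals1, a secreted galectin, fell by 3.82-fold. Spp1, which encodes osteopontin, went from 4155, 1606 and 2324 CPM to 684, 106 and 1169 CPM (log2FC = -2.05 ± 0.58, FDR = 0.0182), and its call was lost without replicate 1 of 4 dpi or replicate 1 of 7 dpi. The count of 7 was 3 without replicate 1 of 4 dpi, 4 without replicate 2 of 7 dpi and 12 without replicate 3 of 7 dpi.

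In iron handling 1 of 19 genes rose and 1 fell, 5.26% each, near the shares of all genes (7.44% and 5.2%). Tfrc, the transferrin receptor, went from 81.8, 40.8 and 90.9 CPM to 10.4, 15.6 and 27.6 CPM (log2FC = -2.0 ± 0.32, FDR = 0.000899), and Slc40a1, the exporter ferroportin, from 11, 31.2 and 14.9 CPM to 44.8, 55.5 and 32.2 CPM (log2FC = 1.22 ± 0.31, FDR = 0.0104). The rise of Slc40a1 was lost without replicate 1 of 4 dpi. Of 45 lysosomal genes 6 fell (13.3%, against 5.2% of all genes) and 0 rose (median -0.60). Of 31 proteasome genes 7 fell (22.6%) and all 31 had a log2FC below 0 (median -0.80), with Psmb7, a catalytic subunit, lower by 2.61-fold. The lysosomal count was 2 without replicate 2 of 7 dpi and 15 without replicate 3 of 7 dpi. The proteasome count was 3 without replicate 1 of 4 dpi or replicate 2 of 7 dpi, 12 without replicate 2 of 4 dpi, 11 without replicate 3 of 4 dpi and 18 without replicate 3 of 7 dpi.

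**Figure D3:**
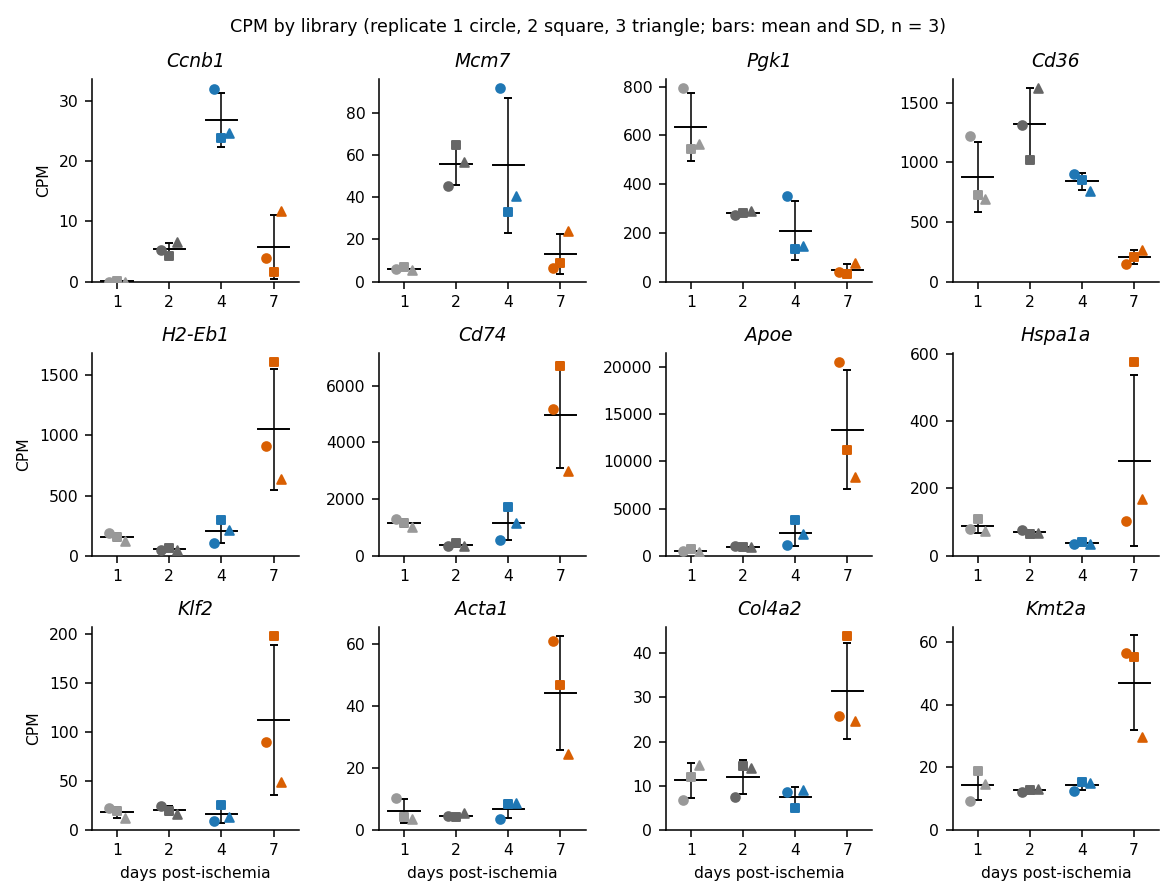
CPM (y-axis) of 12 genes in each of the 12 libraries by day (x-axis), with grey points for 1 and 2 dpi, blue for 4 dpi and orange for 7 dpi, and bars for the mean and SD of 3 libraries. In each gene the 4 and 7 dpi libraries do not overlap, which for the leading genes among them was a condition of their choice. The 7 dpi libraries of genes such as Hspa1a (104 to 576 CPM) and Klf2 (49.3 to 198 CPM) are spread widely.

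Heat shock genes included some of the steepest rises. Of 32 chaperone genes tested 6 rose (18.8%, against 7.44% of all genes) and 0 fell, while the median log2FC was -0.06, so the rise was that of a few stress-induced members. Hspa1a and Hspa1b, the neighbouring genes of the inducible HSP70, are near-identical and can share reads, so their split is uncertain. Hspa1a stood at 35.6, 40.2 and 35.7 CPM at 4 dpi and at 104, 576 and 169 CPM at 7 dpi (log2FC = 2.93 ± 0.44, FDR = 0.000666). Replicate 2 was more than 3 times each of the other 7 dpi libraries. All 3 lay above 4 dpi, as the choice of leading increases required. Hsph1, a co-chaperone of HSP70, had 30.3, 13.6 and 18.0 CPM at 4 dpi and 24.8, 173 and 44.2 CPM at 7 dpi, so its groups overlapped. Without replicate 2 of 7 dpi 2 of the 6 genes were called, Hspa1a and Hspa1b, and Hsph1, Hspb1, Dnaja1 and Dnajb1 were not. Without replicate 2 or 3 of 4 dpi the count was 4. The other 26 chaperones of the list were not called.

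The 2 HSP70 promoters are printed because they show how alike the genes are and where the heat shock element lies, written GAANNTTC or TTCNNGAA and in capitals. Both are the 250 bases before the start from RefSeq, build GRCm38.p6, on the minus strand, at chr17:34972157-34972406 for Hspa1a and chr17:34959239-34959488 for Hspa1b.
Hspa1a: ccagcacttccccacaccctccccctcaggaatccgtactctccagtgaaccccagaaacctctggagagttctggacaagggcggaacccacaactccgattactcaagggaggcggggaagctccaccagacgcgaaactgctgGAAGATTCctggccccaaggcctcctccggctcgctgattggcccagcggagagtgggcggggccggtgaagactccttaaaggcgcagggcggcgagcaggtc
Hspa1b: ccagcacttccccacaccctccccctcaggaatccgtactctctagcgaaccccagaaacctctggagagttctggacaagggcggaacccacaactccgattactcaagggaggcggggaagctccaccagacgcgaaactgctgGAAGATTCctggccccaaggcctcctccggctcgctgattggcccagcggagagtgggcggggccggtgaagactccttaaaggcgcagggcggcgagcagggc
They were identical at 247 of 250 positions and each held 1 match. Of the 31 windows found for 25 of the 32 chaperone genes, 11 (35.5%) held the element, against 12.8% of all windows in the reference.

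Immediate early genes, which are switched on within minutes of a stimulus, were mixed. Of 37 tested 7 rose (18.9%) and 2 fell (5.41%), against 7.44% and 5.2% of all genes (median 0.38). Besides Klf2, Gadd45b, a stress sensor, went from 36.2, 80.5 and 54.9 CPM to 189, 188 and 106 CPM (log2FC = 1.5 ± 0.27, FDR = 0.00176), and Ier5, a regulator of the heat shock factor, and Dusp2, a phosphatase of the MAP kinases, rose by 2.92-fold and 3.22-fold. Of 20 genes known to respond when tissue is dissociated, 5 rose (25%) and 0 fell (median 0.48), and 4 of these 5, Hspa1a, Hspa1b, Dnaja1 and Dnajb1, are also in the chaperone list. The count was 2 without replicate 3 of 4 dpi or replicate 2 of 7 dpi. Its summed level overlapped between the groups, at 8253 to 15440 CPM at 4 dpi and 10360 to 16520 CPM at 7 dpi. The part of dissociation in these values was not tested.

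Pro-inflammatory genes and chemokines were called in both directions. Of 21 pro-inflammatory genes 3 rose and 3 fell (14.3% each), and of 22 chemokines 1 rose (4.55%) and 3 fell (13.6%), against 7.44% and 5.2% of all genes. Il1a, the alarm cytokine interleukin-1α, stood at 4.14, 7.06 and 7.29 CPM at 4 dpi and at 11.1, 40.3 and 10.4 CPM at 7 dpi (log2FC = 1.75 ± 0.42, FDR = 0.00774), a call lost without replicate 2 of 7 dpi. Acod1, which makes itaconate in activated macrophages, went from 2.48, 1.06 and 2.06 CPM to 0.243, 0.308 and 0.509 CPM (log2FC = -2.41 ± 0.38, FDR = 0.000827). Ccl2, the chemokine that draws in monocytes, went from 175, 23.5 and 52.1 CPM to 18.3, 22.2 and 22.9 CPM (log2FC = -1.98 ± 0.48, FDR = 0.00792). Its high value was that of replicate 1 of 4 dpi alone, and without that library 0 chemokines were called lower. Without it 1 pro-inflammatory gene was called lower, and without replicate 2 of 7 dpi 1 was called higher.

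Of 33 growth factors and repair mediators 3 rose (9.09%) and 4 fell (12.1%), with a median of 0.47. Pdgfb, which recruits pericytes to vessels, stood at 5.20, 5.50 and 7.24 CPM at 4 dpi and at 24.6, 21.3 and 18.5 CPM at 7 dpi (log2FC = 1.84 ± 0.29, FDR = 0.00072), with a small spread in both groups. Igf2, a growth factor of muscle and of embryonic tissue, had 0.176 to 0.533 CPM at 4 dpi and 1.14 to 4.51 CPM at 7 dpi, and it passed the filter through 7 dpi alone. Its call was lost without replicate 1 of 7 dpi, where 1 gene of the list rose and 2 fell. Of 20 complement genes, 4 of which passed the filter through 7 dpi alone, 3 rose (15%, against 7.44% of all genes) and 0 fell (median 0.67). C3, the central component of the cascade, went from 11.3, 7.19 and 11.1 CPM to 31.5, 16.9 and 25.6 CPM (log2FC = 1.32 ± 0.26, FDR = 0.00268).

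Matrix genes rose in greater number than those of any other list tested. Of 53 genes of collagens and other matrix proteins 28 were higher (52.8%, against 7.44% of all genes) and 1 was lower (median 1.30). Col4a2, a chain of basement membrane collagen IV, stood at 8.62, 4.84 and 9 CPM at 4 dpi and at 25.8, 44.0 and 24.6 CPM at 7 dpi (log2FC = 2.07 ± 0.34, FDR = 0.000947), and its partner Col4a1 rose by 3.53-fold. Col1a1, the main chain of fibrillar collagen I, went from 65.0, 52.3 and 98.0 CPM to 314, 143 and 206 CPM (log2FC = 1.62 ± 0.41, FDR = 0.01). Lum, a proteoglycan of collagen fibrils, and Postn, a matrix protein of healing tissue, rose by 5.25-fold and 2.94-fold. The gene that fell was Sparcl1, at 1.97, 0 and 2.19 CPM at 4 dpi and 0 in all libraries of 7 dpi.

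Some markers of fibroblasts and vessel cells were higher too. Of 20 fibroblast genes, several of them matrix genes too, 11 rose (55%) and 1 fell (median 1.43), and their summed level was 562.7 to 822 CPM at 4 dpi and 798 to 1214 CPM at 7 dpi, which overlapped. A large part of the 4 dpi sum was Gsn, the gene that fell. It stood at 550, 360.5 and 381 CPM at 4 dpi and at 144, 173 and 327 CPM at 7 dpi. The sum thus hides that 18 of the 20 genes had a log2FC above 0. Dcn, the defining proteoglycan decorin, went from 17.1, 11.6 and 14.4 CPM to 41.1, 46.7 and 31.4 CPM (log2FC = 1.47 ± 0.40, FDR = 0.0146), a call lost without replicate 2 of 7 dpi. Pdgfra, the other defining marker, stood at 3.30, 1.38 and 2.85 CPM at 4 dpi and at 2.86, 2.71 and 2.32 CPM at 7 dpi (log2FC = 0.06 ± 0.50, FDR = 0.94), and Pi16, a marker of their precursors, went from 0.351 to 1.24 CPM to 3.97 to 6.01 CPM. The fibroblast count was 7 without replicate 1 of 7 dpi. Endothelial genes rose in 4 of 16 (median 1.14, summed level 39.1 to 53.2 CPM, then 59.1 to 163 CPM), and 0 were called without replicate 2 of 7 dpi, 2 without replicate 3 of 4 dpi and 7 without replicate 1 of 7 dpi. Of 8 genes of pericytes and smooth muscle 2 rose, Myh11 and Rgs5, by 10.2-fold and 4.54-fold (summed level 38.1 to 46.3 CPM, then 61.1 to 108 CPM). The part of RNA from such cells in the matrix result was not tested.

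Muscle fibre genes had the highest median of the marker lists, 2.62 over the 19 of 26 genes that could be tested, 4 of which passed the filter through 7 dpi alone. Of the 19, 9 rose and 0 fell. Acta1, the actin of skeletal muscle, stood at 3.51, 8.35 and 8.61 CPM at 4 dpi and at 60.9, 46.7 and 24.4 CPM at 7 dpi (log2FC = 2.70 ± 0.41, FDR = 0.000687). Myl1, a myosin light chain, went from 0.968, 1.15 and 2.28 CPM to 20.2, 14 and 6.73 CPM (log2FC = 3.23 ± 0.44, FDR = 0.000381), and Ckm, the creatine kinase of muscle, rose by 13-fold from 0.176 to 0.4 CPM at 4 dpi. All of these genes were highest in replicate 1 and lowest in replicate 3 of 7 dpi. The list summed to 34.7, 30.6 and 42.5 CPM at 4 dpi and to 187, 142 and 83.2 CPM at 7 dpi. The source of this RNA was not tested. Of 8 genes of muscle stem cells and myoblasts 0 rose and 1 fell, and 0 fell when any 1 library but replicate 2 of 4 dpi was left out. The gene that fell, Cdh15, passed the filter through 4 dpi alone, so the filter favoured a higher value there. Of the 8 genes 5 would not have passed without the libraries of 7 dpi and 3 not without those of 4 dpi, with Myf5 in both counts.

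**Figure D4:**
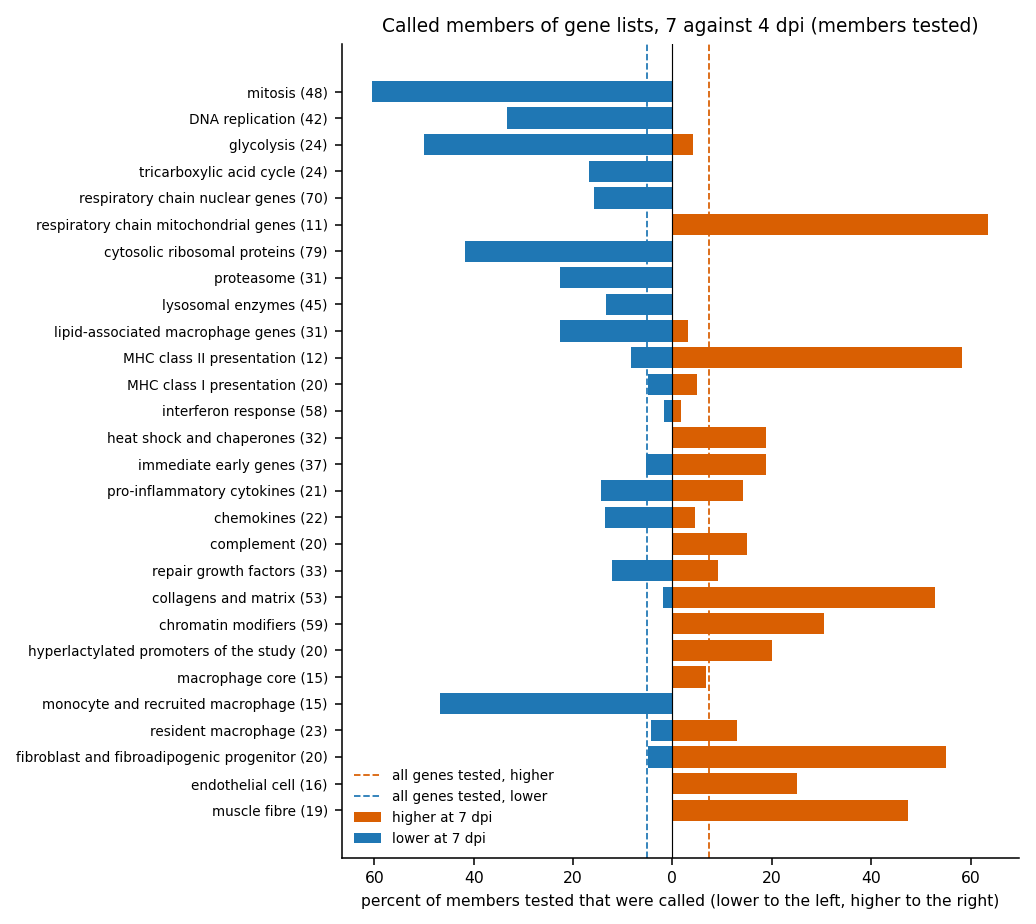
Share of the tested members of 28 gene lists (y-axis, number tested in brackets) called lower (blue, left) or higher (orange, right) at 7 dpi, in percent (x-axis), with dashed lines at the shares of all genes, 5.2% and 7.44%. Mitosis has the largest lower share of the lists drawn (60.4%), and mitochondrially encoded genes, MHC class II, fibroblast and matrix genes have higher shares above 50%.

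Monocyte genes fell more often than they rose. Of 15 genes of monocytes and recruited macrophages 7 fell, 0 rose and all 15 had a log2FC below 0 (median -1.26). Plac8, a marker of Ly6C-high monocytes, stood at 29.4, 6.48 and 17.2 CPM at 4 dpi and at 1.78, 1.42 and 3.82 CPM at 7 dpi (log2FC = -2.92 ± 0.44, FDR = 0.00068). Cd177, a receptor of granulocytes and monocytes, fell by 12.8-fold. The count of 7 was 4 without replicate 1 of 4 dpi and 11 without replicate 2 of 4 dpi. Of 23 genes of resident macrophages 3 rose (13%) and 1 fell (4.35%), with a median of 0.39, and Timd4, a receptor for dead cells, was called at 0.0605 to 0.178 CPM and then 0.324 to 2.46 CPM after passing the filter through 7 dpi alone. Its call was lost without any of the 4 dpi libraries or without replicate 2 of 7 dpi. The count of 3 was 1 without replicate 1 or 3 of 4 dpi or replicate 2 of 7 dpi, and the count of 1 was 4 without replicate 2 of 7 dpi. Lyve1, a defining marker, stood at 4.23, 5.15 and 4.65 CPM at 4 dpi and at 1.03, 24.6 and 2.60 CPM at 7 dpi, with only replicate 2 above 4 dpi, and without that library it was called lower (log2FC = -1.36, FDR = 0.0323). Neutrophil genes fell in 4 of 9, or in 2 without replicate 1 of 4 dpi (summed level 91.2 to 174 CPM, then 45.9 to 162 CPM). Cd14, the lipopolysaccharide co-receptor of monocytes and macrophages, went from 280.4, 480.1 and 355 CPM to 1101, 1025 and 606 CPM (log2FC = 1.29 ± 0.25, FDR = 0.00251), unlike the monocyte list.

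Regulators of chromatin were often higher at 7 dpi. Of 59 tested 18 were called higher (30.5%) and 0 lower, and the median log2FC was 0.62. Chd3, a remodeller of the NuRD complex, stood at 5.87, 6.48 and 8.21 CPM at 4 dpi and at 27.9, 26.2 and 18.5 CPM at 7 dpi (log2FC = 1.82 ± 0.23, FDR = 0.000264). Smarca2, an ATPase of the SWI/SNF complex, went from 6.90, 8.74 and 7.81 CPM to 34.2, 31.8 and 23.5 CPM (log2FC = 1.93 ± 0.25, FDR = 0.000296). Kmt2a, a methyltransferase of histone H3 lysine 4, went from 12.5, 15.2 and 14.9 CPM to 56.3, 55.1 and 29.6 CPM (log2FC = 1.73 ± 0.26, FDR = 0.000679). The values of these genes were tight at 4 dpi and lowest in replicate 3 at 7 dpi, with no overlap. Without replicate 1 of 7 dpi 11 were called. The exonic length of these genes, all annotated exons of a gene merged, is large, 8443 bases for Chd3, 14269 for Smarca2 and 16670 for Kmt2a. Across all protein-coding genes this length moved with the change. The share called higher was 4.11%, 3.79%, 5.2% and 11.2% in 4 equal groups from the shortest to the longest exonic length, and the share called lower 8.81%, 5.67%, 4.31% and 2.04%. Among the leading increases, Dst (41155 bases), Golga4, Bod1l and Pou2f2 were in the longest group, of 6932 bases or more. Lag3, Klf2 and Igfbp7 were in the shortest group, of at most 2879. Of the ribosomal protein genes named above, Rpl27 (1535 bases) was in the shortest group and Rps15a (6270) in the second longest. The part of length in the chromatin result, or in that of any other list or gene, was not tested.

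Of 33 transcription factors of macrophages 3 rose (9.09%, near the 7.44% of all genes) and 0 fell (median 0.28). Cebpa, a factor of myeloid differentiation, stood at 31.9, 70.8 and 49.8 CPM at 4 dpi and at 291, 112 and 104 CPM at 7 dpi (log2FC = 1.73 ± 0.35, FDR = 0.00304), and Klf4 rose by 2.53-fold, a call lost without replicate 1 of 7 dpi, while 6 factors rose without replicate 3 of 7 dpi. The study lists 20 genes for promoters with a gain of histone lactylation, a list drawn from its chromatin data. Of these 4 rose (20%, against 7.44% of all genes) and 0 fell. A log2FC above 0 was seen in 18 of the 20 (median 0.58), against 48.77% of all genes. The paper already reports, from its own RNA data, a rise between 4 and 7 dpi for 18 of the 20. It also states that some of them share a promoter peak, such as Supt6 with Sdf2 and Rab20 with E230013L22Rik. The 20 are thus not all separate cases. The 4 were H2-Eb1, H2-Aa, Zmynd15 and Gm20513, the last an antisense gene that passed the filter through 7 dpi alone, as did Gm10804, which was not called. Without replicate 1 of 4 dpi or replicate 2 of 7 dpi, 2 were called. C1qa, the complement component that tags dead cells, had 620.1, 1148 and 876 CPM at 4 dpi and 1740, 1175 and 1149 CPM at 7 dpi, with no overlap but an FDR of 0.0625.

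Entries of uncertain annotation, most of them inside other genes, were often higher at 7 dpi. The annotation marks some entries as TEC, transcripts still to be experimentally supported, and others as sense intronic. Of 521 TEC entries tested 163 were higher and 0 lower (median log2FC 1.89), but 257 of the 521 passed the filter through 7 dpi alone, so that the filter itself favoured higher values there. The median was 1.89 also with the 11 entries at 0 in all 4 dpi libraries held at their floor of 3 counts. Among the other 264 entries 99 were higher. All TEC entries together took 0.0441%, 0.0622% and 0.0723% of the counts outside the dominant gene at 4 dpi and 0.15%, 0.396% and 0.156% at 7 dpi, without overlap (exact permutation test, two-sided, p = 0.1, the smallest that 3 against 3 libraries allow). Of the 163, 147 lay within a protein-coding gene and 138 of these in its introns only. For 20 of them the host gene was called higher, for 2 lower and for 125 neither, and these entries had been picked by their own call while the hosts had not. Gm43430, inside an intron of Nfkb1, stood at 2.24, 1.91 and 3.21 CPM at 4 dpi and at 11.7, 40.5 and 10.6 CPM at 7 dpi (log2FC = 3.09 ± 0.46, FDR = 0.000614), while Nfkb1 itself, a subunit of NF-κB, had a log2FC of 1.07, a call lost without replicate 1 of 4 dpi or replicate 2 of 7 dpi. Nfkb1 and Picalm were added after their values had been seen. Gm45222 and Gm45223, both in introns of Picalm, had log2FCs of 2.92 and 2.58 against 0.40 for Picalm, a clathrin assembly protein. Replicate 2 of 7 dpi had the highest value of these entries. Without it 40 TEC entries were called higher, without replicate 1 of 4 dpi 73, and without both 20. Of 70 sense intronic entries 24 were higher and 0 lower, a count of 6 without replicate 2 of 7 dpi, 12 without replicate 1 of 4 dpi and 15 without replicate 3 of 4 dpi. Here too the filter favoured higher values, as 41 of the 70 passed it through 7 dpi alone, and 15 of the other 29 were higher. Since the kit does not mark the strand, reads of an entry and of unspliced RNA of its host cannot be told apart.

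**Figure D5:**
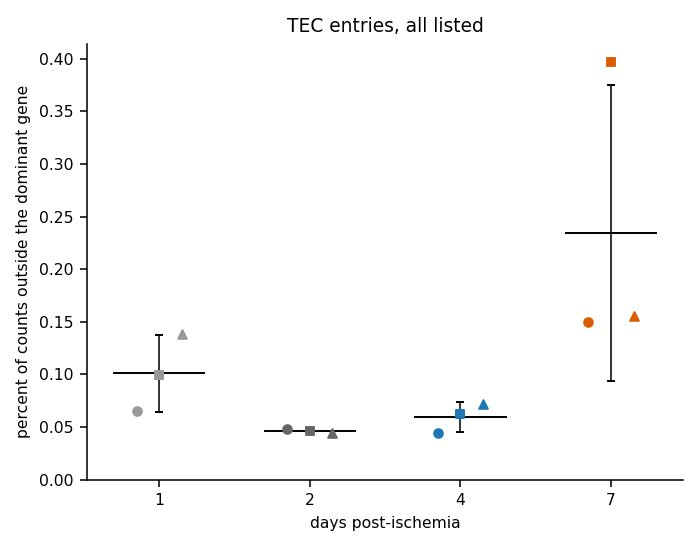
Share of counts outside the dominant gene taken by all TEC entries (y-axis, percent) in each of the 12 libraries by day (x-axis), with bars for the mean and SD of 3 libraries. The 7 dpi libraries lie above those of 4 dpi, and replicate 2 of 7 dpi has the highest share (0.396%).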

How the data were processed

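Raw counts of sorted muscle macrophages were analysed. Per the paper's methods and the submitters' processing notes, the authors used Trim Galore 0.6.6 for trimming and HISAT2 2.2.1 for alignment on GRCm39, and they deposited counts per Ensembl gene from featureCounts (Subread 2.0.1). Libraries came from oligo-dT primed Smart-seq without a strand mark.

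Counts were scaled by TMM, filtered with filterByExpr and tested with edgeR 4.0.16 (R 4.3.3) in a quasi-likelihood fit of all 12 libraries with 8 residual degrees of freedom. The contrast was 7 against 4 dpi and SE was the log2FC divided by the root of F. DEGs needed FDR below 0.05 and a log2FC beyond 1 in either direction. CPM used TMM-scaled library sizes. The test was first tried on simulated counts. Symbols, lengths and classes came from GENCODE on GRCm38 and promoters from RefSeq on GRCm38.p6, so no coordinates on the files' own build are given.

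The members and the gene lists were chosen with earlier results of these data known. Genes were named by rule, as the 15 largest changes in each direction among abundant genes without overlap, up to 5 called members per list by p in its leading direction and 2 in the other, the first 2 markers of each cell list, and the study's own 20 genes. Mki67, Nfkb1, Picalm, Rpl24 and Rps10 were added after their values were seen. Alternatives covered scaling, filters, DESeq2 1.42.0, limma 3.58.1, thresholds, a replicate block and the omission of each library. Of the counts from 1 to 20 in a library a median of 83.1% over libraries were even, so both mates of a pair may have been counted, which the sources do not settle. Total counts, counting error and the floor of 3 counts for a gene at 0 may thus not refer to single fragments. Some genes that this rule selects are not reported here.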

Additional observations from a re-analysis of the deposited data

How the results depend on the processing

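Counts of genes called higher and lower depended on the settings. None of the 1064 and 744 genes called above was called in the opposite direction under any of them. Other genes were not compared between settings. Leaving out 1 library gave 567 to 1336 genes higher and 442 to 1290 lower. The lowest counts were those without replicate 2 of 7 dpi and the highest those without replicate 3 of 7 dpi, and without replicate 1 of 4 dpi the counts were 674 and 504. Without replicates 1 of 4 dpi and 2 of 7 dpi together they were 454 and 314, where fewer libraries were fitted. The newer edgeR fit gave 1649 higher and 866 lower, the 6 libraries alone 1106 and 470, calls by FDR with no threshold on fold 1566 and 2090, and a test against the fold threshold itself (glmTreat) 46 and 22, which ended 62 of the calls of named genes. The cause of the other differences was not tested. Of all calls 58.85% were higher, against 70.3% with DESeq2, 70.18% with the 6 libraries alone, 68.95% with counts divided by 2 and 42.83% by FDR alone. With the size factors of DESeq2 in the edgeR fit the median log2FC of all genes was 0.06 and the counts were 1230 and 569. Without the most abundant gene the counts were 1163 and 619, with 1039 and 614 of them shared. Without it and the mitochondrial genes they were 1050 and 727. The TMM factors were 0.89 to 1.03 at 4 dpi and 1.35 to 1.7 at 7 dpi.

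The labels do not tell whether the replicate numbers pair the samples, and 3 libraries per day are too few to decide it. Deviations from the day means correlated at 0.0057, 0.1275 and -0.1333 between equal numbers, and not every library correlated best with its own number. A fit with the replicate block gave 1007 genes higher and 773 lower, 951 and 712 of them shared.

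Adgre1, not called in any of these, had a log2FC of -0.10 without replicate 1 of 4 dpi, 0.20 without replicate 2 of 4 dpi, -0.05 without replicate 2 of 7 dpi and -0.18 without both of the libraries named above. Lyve1 had -0.27 with limma-voom, 1.53 without replicate 1 of 7 dpi, -1.36 without replicate 2 of 7 dpi and -1.42 without both. Pdgfra had -0.25 to 0.29 and Flt3 -0.10 to 0.83 over the omissions of 1 library. Of the named genes that were called, none changed direction under any alternative.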

Other observations

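Of 52 mitochondrial ribosomal proteins 1 fell and 0 rose, and 51 had a log2FC below 0 (median -0.70). Their summed level went from 679 to 889 CPM at 4 dpi to 327 to 568 CPM at 7 dpi, without overlap. The count of 1 was 0 without replicate 1 of 4 dpi or replicate 2 of 7 dpi, 4 and 7 without replicates 2 and 3 of 4 dpi, and 8 and 14 without replicates 1 and 3 of 7 dpi. Of 50 genes of ribosome biogenesis 3 fell (6%, near the 5.2% of all genes, median -0.36). The count was 1 without replicate 1 of 4 dpi or replicates 1 or 2 of 7 dpi, 7 and 6 without replicates 2 and 3 of 4 dpi, and 9 without replicate 3 of 7 dpi. Of 25 genes of the unfolded protein response 1 rose and 2 fell (median -0.38), and 1 fell without replicate 1 of 4 dpi or replicates 1 or 2 of 7 dpi, 5 without replicate 2 of 4 dpi and 4 without replicate 3 of 7 dpi. In cholesterol synthesis 1 of 28 genes rose and 1 fell (median -0.13), with 0 to 2 and 0 to 1 when 1 library was left out. Of 20 chemoattractant receptors 0 rose and 1 fell (5%, median -0.03), and of 22 receptors for dead cells and scavenged ligands 1 rose (4.55%) and 3 fell (13.6%, median 0.08).

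Of 5 T and NK cell genes tested 0 rose and 0 fell (1 of the 5 passed through 7 dpi alone), with a summed level of 76.3 to 95.3 CPM at 4 dpi and 38.9 to 90.1 CPM at 7 dpi. Of 6 Schwann cell genes 1 rose (105 to 168 CPM, then 137 to 164 CPM), and 0 rose without replicate 1 or 3 of 4 dpi or replicate 2 of 7 dpi. Of 2 mast cell genes 1 fell (1.69 to 3.69 CPM, then 1.27 to 2.53 CPM), and of 4 erythroid genes 0 were called (1.78 to 7.2 CPM, then 2.43 to 7.09 CPM).

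Of 325 antisense entries 50 rose and 1 fell, and 152 of the 325 passed the filter through 7 dpi alone. The count of 50 was 12 and 28 without replicates 1 and 3 of 4 dpi and 6 without replicate 2 of 7 dpi. Of 620 processed pseudogenes 90 fell and 31 rose. Without replicate 1 of 4 dpi these counts were 58 and 7, without replicate 2 of 7 dpi 55 and 4, and without replicate 2 of 4 dpi 15 rose. Of the 620, 113 passed the filter through 7 dpi alone, and among the other 507 only 9 rose with all libraries.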
